A study of Homo sapiens with 12 samples.

Results

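The response of 2 human cell lines to the same short hairpin against NCSTN was compared by the difference of their differences, namely the knockdown effect in HEK293 minus the knockdown effect in HEK001. The genes described are those whose probe was detected on all 12 arrays of the series (detection p-value under 0.01 on each), so that no difference rests on a transcript that is silent in 1 line. There were 11537 such probes among the 47318 on the array, and 9519 of them have a single gene name. With the brightest probe standing for each gene, 7623 of the 11075 genes tested were members. HEK293 is a human embryonic kidney line that carries adenoviral DNA, and HEK001 is an immortalized line of human epidermal keratinocytes. Each line carried either a lentiviral hairpin against NCSTN or, as its control, the pLKO vector with a hairpin against luciferase. The 4 groups of 3 arrays were HEK293 with the NCSTN hairpin, HEK293 with the control hairpin, HEK001 with the NCSTN hairpin and HEK001 with the control hairpin.

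All groups had been infected with virus for 24 h in polybrene at 10 µg/mL and selected in puromycin for about 2 weeks. HEK293 grew in DMEM with 10% fetal bovine serum and was selected at 2 µg/mL, while HEK001 grew in a serum-free keratinocyte medium with EGF and bovine pituitary extract and was selected at a labelled 0.5, for which the unit is incompletely written. Line, medium and puromycin dose therefore cannot be told apart. A single NCSTN hairpin was used, and no second hairpin was measured. Whether the 3 arrays of a group stem from separate cultures is not labelled, and the p-values then describe only the spread among these arrays, which may be technical. All 12 source names say HEK001, but for 6 samples both title and cell line entry say HEK293.

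Gamma-secretase is a protease of the membrane that cuts receptors such as Notch and the amyloid precursor protein inside the lipid bilayer. Its subunits are nicastrin, which admits substrates, a presenilin, which holds the active site, an APH1 protein, which serves as a scaffold, and PEN2, encoded by PSENEN. In skin, Notch signalling accompanies the differentiation of keratinocytes, and loss-of-function mutations of NCSTN are known from familial hidradenitis suppurativa. The target of the hairpin is shown because every knockdown array of both lines rests on it. Capitals mark the bases that would pair with bases 2 to 8 of a guide strand starting opposite the last base of the target. Matches of these letters in other transcripts were not analysed here.
NCSTN hairpin target: gctctactgaataCTCTACAt

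NCSTN measured 7.73, 7.77 and 7.89 normalized log2 units on the knockdown arrays of HEK293, against 9.66, 9.82 and 9.80 on its control arrays. NCSTN in HEK001 measured 6.55, 6.99 and 6.84 on the knockdown arrays, against 9.92, 9.95 and 9.77 on the control arrays. The knockdown arrays lay below the control arrays in both lines without overlap, and the control levels of the lines were close to each other. It fell by 1.97 (SE 0.116, adjusted p = 2.38e-07) in HEK293, which left 25.5% of the control level, and fell by 3.09 (SE 0.116, adjusted p = 1.39e-08) in HEK001, which left 11.8%. The depth of knockdown itself thus differed by 1.12 (adjusted p = 0.00047), so each comparison below sets a weaker knockdown in HEK293 beside a deeper one in HEK001. None of the other measured subunits was called in either line or for the difference. Their differences between the lines were 0.26 for PSEN2, 0.27 for APH1A, -0.06 for APH1B and 0.30 for PSENEN, and second probes of PSEN2, APH1A and APH1B gave differences of the other sign, also not called.

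Between 14818 and 16333 probes were detected per array, with a median of 22 beads behind each probe. Across the 7623 genes, Pearson's r was 0.9897 to 0.9948 within a group, 0.9733 to 0.9848 between the arms of a line and 0.8298 to 0.8552 between the lines. All 10 keratinocyte markers with a probe were detected on every HEK001 array and none on the HEK293 control arrays, while LAMB3, a laminin chain of the epidermal basement membrane, was detected on the 3 HEK293 knockdown arrays. Of 7 measured genes typical of HEK293, all were detected on the 3 arrays of both HEK293 groups, and LIN28B, TUBB2B, ZCCHC12 and CYFIP2 on no HEK001 array. NEFL was also detected on 2 knockdown and 3 control arrays of HEK001. INA and GAL were detected on every HEK001 array, and their means were higher there. With knockdown before control, INA gave 9.49 and 9.76 in HEK001 against 8.98 and 8.01 in HEK293. GAL gave 9.51 and 9.84 against 9.11 and 8.97. Fibroblast, melanocyte and leukocyte markers were detected on all 3 arrays of a group for at most 1 gene each, namely COL1A1, PMEL and CD14, in HEK293 arms alone. The cell line entries, rather than the source name, matched the keratinocyte markers and LIN28B, TUBB2B, ZCCHC12 and CYFIP2, whereas INA and GAL did not set the lines apart. The part of the low markers in the results below was not tested.

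Each effect is the mean log2 level under the NCSTN hairpin less that under its control, with its standard error (SE) from the limma fit to all 12 arrays, and a gene was called at a Benjamini-Hochberg adjusted p under 0.05 over 11075 genes. In HEK293, 2104 of the 7623 genes were called (27.6%, beside 25.9% of all 11075 genes tested), 1062 higher (13.9%) and 1042 lower (13.7%). In HEK001, 1338 were called (17.6%, beside 16.2% of all genes tested), 638 higher (8.37%) and 700 lower (9.18%). The effects of the lines differed for 1939 genes (25.4%, beside 24.5% of all genes tested). For 1000 of them (13.1%) the difference was positive, meaning that the effect lay higher in HEK293, and for 939 (12.3%) it was negative. Among the 1939, 286 differed at least 2-fold, 103 with a positive and 183 with a negative difference. Over all 7623 genes the median effect was 0.016 in HEK293 and -0.016 in HEK001, with a median difference of 0.037. Both effects rest on separate arrays but on 1 estimate of spread per gene. Across genes, which are not independent replicates, they were nearly uncorrelated (r = -0.012, and -0.02 without NCSTN).

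Most genes called in 1 line were not called in the other, and 511 were called in both. They were 24.3% of the calls in HEK293, beside the 17.6% of all 7623 genes called in HEK001. Of the calls in HEK001 they were 38.2%, beside the 27.6% of all 7623 genes called in HEK293. Genes called in 1 line were thus called in the other more often than genes at large. Both calls use the same estimate of spread per gene, and its part in this was not tested. Of the 511, 263 moved in opposite directions (3.45% of the 7623 genes, and 2.87% of all genes tested). These were 119 higher in HEK293 and lower in HEK001 (1.56%), and 144 the other way round (1.89%). With median scaling in place of quantile normalization the split was 136 against 95, so the direction that prevails among opposite genes depends on the scaling. The other 248 moved alike (3.25%, and 2.61% of all genes tested), 105 higher in both lines (1.38%) and 143 lower in both (1.88%). Of the 263 opposite genes, 255 had knockdown and control arrays that did not overlap in either line and lay apart in opposite ways, which held for 800 of all 7623 genes (10.5%). At 1.5-fold or more in both lines there were 76 genes, 10 higher in HEK293 and lower in HEK001, 28 the reverse, 10 higher in both and 28 lower in both. At 2-fold or more there were 12, of which 9 were lower in both lines. Without control replicate 3 of HEK001, 164 genes were opposite, 165 alike and 821 called in HEK001.

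**Figure D1:**
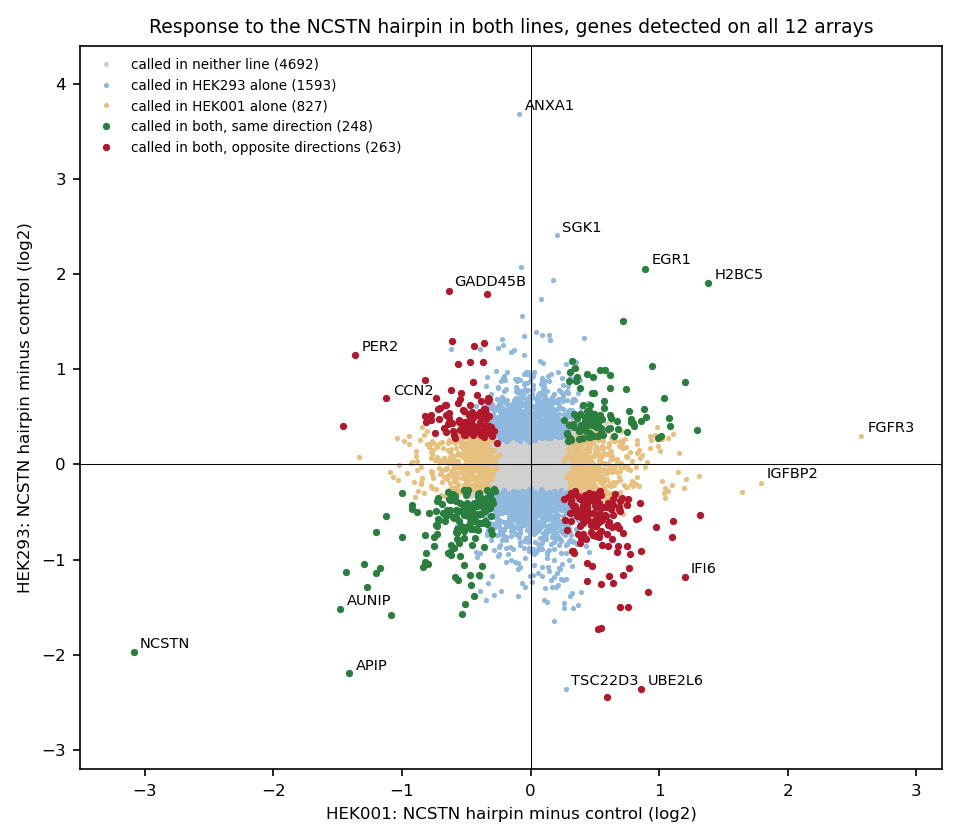
Log2 effect of the NCSTN hairpin relative to its control in HEK293 (vertical) against that in HEK001 (horizontal) for the 7623 genes detected on all 12 arrays, 1 point per gene, coloured by the lines in which the gene was called. The 263 opposite genes fill the upper left and lower right quadrants, the 248 alike genes the other quadrants, and NCSTN lies at the far lower left.

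The largest paired opposite responses that were higher in HEK293 included a clock gene, stress-inducible genes and a matricellular protein. PER2, a repressor in the circadian clock, measured 6.58, 7.06 and 6.87 on the HEK293 knockdown arrays, against 5.71, 5.72 and 5.64 on the HEK293 control arrays. Levels of PER2 in HEK001 were 6.09, 5.84 and 5.79 on the knockdown arrays, against 7.33, 7.41 and 7.08 on the control arrays. The arms did not overlap in either line, and the knockdown arrays were the high ones in HEK293 and the low ones in HEK001. PER2 rose by 1.15 in HEK293 (adjusted p = 5.52e-05) and fell by 1.36 in HEK001 (adjusted p = 3.6e-05), a difference of 2.51 (SE 0.188, adjusted p = 4.56e-06). GADD45B, a growth arrest and stress response gene, measured 9.0, 9.32 and 8.81 on the HEK293 knockdown arrays, against 7.17, 7.08 and 7.41 on the HEK293 control arrays. HEK001 showed GADD45B at 7.13, 6.76 and 6.82 on the knockdown arrays, against 7.36, 7.63 and 7.62 on the control arrays. Again no array of one arm reached those of the other. It rose by 1.83 in HEK293 and fell by 0.64 in HEK001, a difference of 2.46 (SE 0.208, adjusted p = 7.74e-06).

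CCN2, a connective tissue growth factor induced by TGF-beta and YAP, measured 7.80, 8.07 and 8.16 on the HEK293 knockdown arrays, against 7.32, 7.27 and 7.37 on the HEK293 control arrays. For CCN2, HEK001 gave 5.92, 5.86 and 5.80 on the knockdown arrays, against 6.98, 7.09 and 6.88 on the control arrays. It rose by 0.69 in HEK293 and fell by 1.12 in HEK001 without overlap of arms, a difference of 1.82 (adjusted p = 6.94e-06). A second CCN2 probe had the same signs (0.44 in HEK293 and -0.76 in HEK001), but was not called in either line or for the difference (1.20, adjusted p = 0.0809). ATF3, a stress-inducible transcription factor, measured 9.51, 9.68 and 9.43 on the HEK293 knockdown arrays, against 8.82, 8.95 and 8.98 on the HEK293 control arrays. ATF3 in HEK001 measured 5.66, 5.41 and 5.68 on the knockdown arrays, against 6.10, 6.35 and 6.26 on the control arrays. Its arms lay apart in both lines in opposite ways, with a difference of 1.29 (adjusted p = 0.00013). KMT5B, a histone H4 lysine methyltransferase, rose by 0.89 in HEK293 and fell by 0.82 in HEK001 (difference 1.70, adjusted p = 0.000527), and its second probe was called in HEK293 and for the difference (1.15) but not in HEK001. PIGW, an acyltransferase of glycosylphosphatidylinositol anchor synthesis, rose by 0.70 and fell by 0.73 in the same order (difference 1.44, adjusted p = 0.000658).

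The mirror image, lower in HEK293 and higher in HEK001, was led by interferon-inducible genes. IFI6, an interferon-induced mitochondrial protein, measured 9.16, 9.26 and 9.22 on the HEK293 knockdown arrays, against 10.49, 10.49 and 10.19 on the HEK293 control arrays. Levels of IFI6 in HEK001 were 12.90, 13.10 and 13.34 on the knockdown arrays, against 11.76, 11.94 and 12.03 on the control arrays. The knockdown arrays of HEK293 all lay below its lowest control array and those of HEK001 all above its highest. IFI6 fell by 1.18 in HEK293 (adjusted p = 2.77e-05) and rose by 1.20 in HEK001 (adjusted p = 6.27e-05), a difference of -2.38 (SE 0.178, adjusted p = 4.56e-06), and its second probe was opposite as well (-1.28 and 1.82). UBE2L6, the conjugating enzyme for the ubiquitin-like protein ISG15, measured 6.20, 6.22 and 6.85 on the HEK293 knockdown arrays, against 8.71, 8.80 and 8.83 on the HEK293 control arrays. HEK001 showed UBE2L6 at 10.97, 10.86 and 10.86 on the knockdown arrays, against 9.95, 10.04 and 10.12 on the control arrays. Its arms were far apart in HEK293 and closer in HEK001, without overlap. It fell by 2.36 in HEK293 and rose by 0.86 in HEK001, and the difference of -3.22 (SE 0.206, adjusted p = 1.37e-06) was larger than for any other opposite gene shown here. A second UBE2L6 probe, detected on 10 arrays, gave -1.08 and 1.20.

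BTN3A2, a butyrophilin of the immunoglobulin superfamily encoded in the MHC region, measured 6.84, 6.85 and 6.43 on the HEK293 knockdown arrays, against 7.99, 8.0 and 8.14 on the HEK293 control arrays. For BTN3A2, HEK001 gave 7.02, 7.14 and 7.19 on the knockdown arrays, against 6.36, 6.33 and 5.91 on the control arrays. The arms did not overlap, and the difference was -2.25 (SE 0.199, adjusted p = 1.19e-05). The remaining genes of this rank have no common function. ADGRL1, an adhesion G protein-coupled receptor, fell by 0.91 in HEK293 and rose by 0.86 in HEK001 (difference -1.77, adjusted p = 5.28e-05). CLYBL, a mitochondrial lyase of citramalyl-CoA, fell by 0.94 and rose by 0.77 in the same order (difference -1.71, adjusted p = 5.29e-05). FBXL16, an F-box protein, fell by 1.09 and rose by 0.76 (difference -1.85, adjusted p = 4.93e-05). All 12 opposite genes described so far kept both calls under each of the 23 processing alternatives and left-out arrays. Second probes of BTN3A2 (detected on 5 arrays) and CLYBL (detected on 11) fell in HEK293 (-1.04 and -1.09). Neither was called in HEK001 (0.32 and 0.42), so the opposite calls of these genes rest on 1 probe each.

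**Figure D2:**
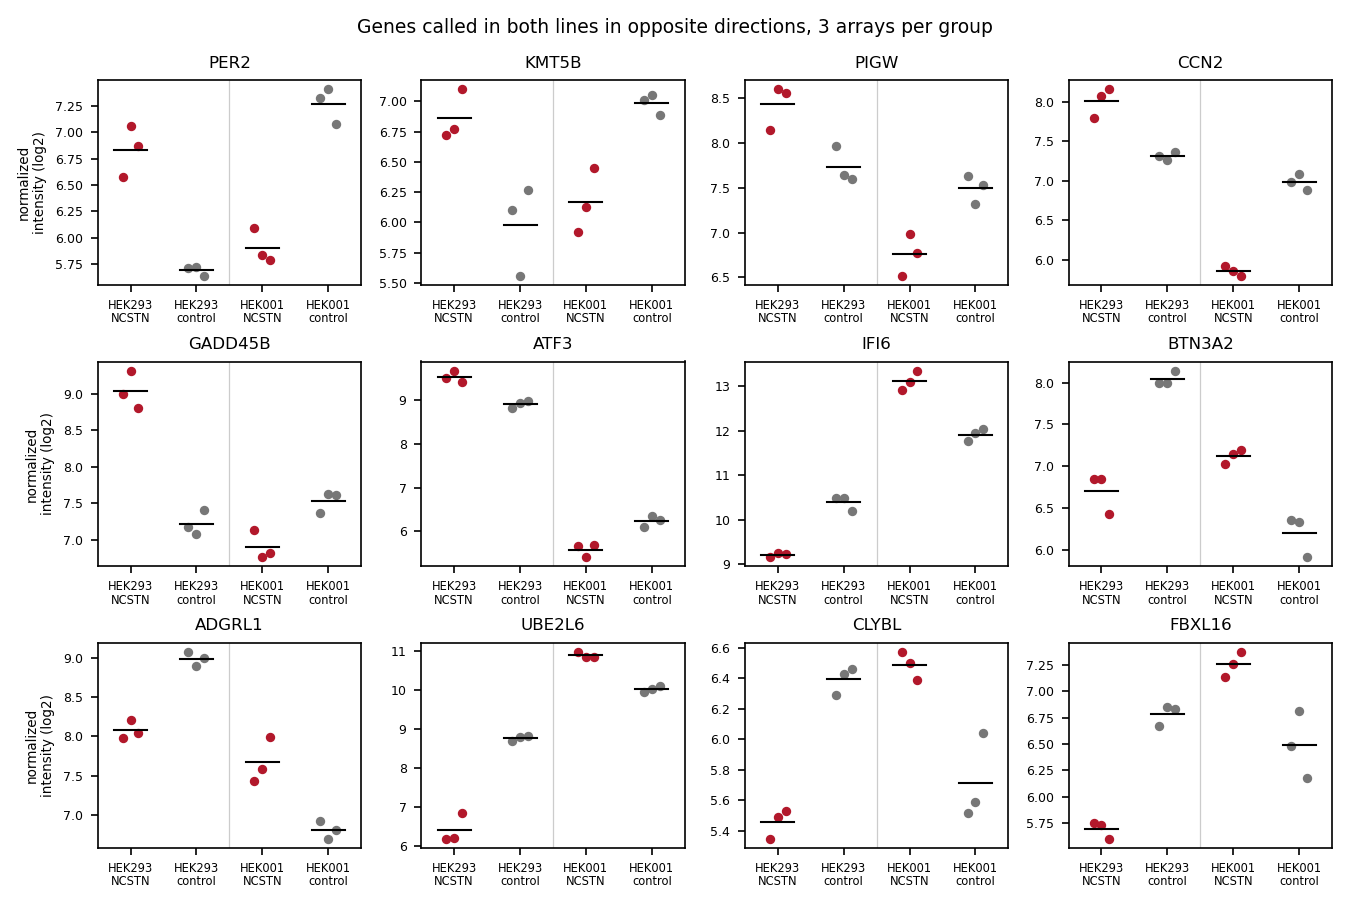
Normalized log2 intensity of 12 opposite genes on each array, 1 point per array, with a line at the mean of each group of 3 arrays; in each line the knockdown group (red) is left of its control (grey). The first 6 genes are higher with the NCSTN hairpin in HEK293 and lower in HEK001, and the last 6 show the reverse.

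Interferon-stimulated genes as a list responded mainly in HEK001 and with opposite sign in a minority. Of 26 members detected on all arrays, 1 was higher and 7 lower in HEK293 (median -0.09), while in HEK001 15 were higher and none lower (median 0.58). The difference was called for 16 genes, 15 negative (57.7%) and 1 positive (3.8%), with a median of -0.75 against 0.037 over all 7623 genes. Among all 7623 genes, 13.9% were called higher and 13.7% lower in HEK293, and 8.37% higher and 9.18% lower in HEK001. For the difference, 13.1% of all genes were positive and 12.3% negative. The counts of every list below stand beside these shares. The 5 opposite members were UBE2L6, IFI6, IFITM2, ISG15 and IRF9. ISG15, a secreted and conjugated ubiquitin-like protein, measured 6.57, 6.97 and 6.97 on the HEK293 knockdown arrays, against 7.41, 7.28 and 7.43 on the HEK293 control arrays. ISG15 in HEK001 measured 12.30, 12.11 and 12.17 on the knockdown arrays, against 10.84, 10.79 and 11 on the control arrays. It fell by 0.53 in HEK293 and rose by 1.32 in HEK001 without overlap of arms (difference -1.85, adjusted p = 1.4e-05). IFITM2, an inhibitor of viral entry with near-identical relatives, fell by 1.73 and rose by 0.52 (difference -2.26, adjusted p = 7.74e-06). Its opposite call was lost without knockdown replicate 1, knockdown replicate 2 or control replicate 1 of HEK001. HERC5, the ligase that attaches ISG15 to proteins, went against the list with a positive difference of 0.42 (adjusted p = 0.0272), although it was called in neither line (0.20 in HEK293 and -0.22 in HEK001).

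MHC class I presentation followed the same direction. Of 12 members, 4 were lower and none higher in HEK293 (median -0.28), and 7 were higher and none lower in HEK001 (median 0.42). The difference was negative for 9 (75.0%, beside 12.3% of all 7623 genes) and positive for none (median -0.85). PSME1, a subunit of the proteasome activator induced by interferon-gamma, measured 9.70, 9.86 and 9.97 on the HEK293 knockdown arrays, against 10.76, 10.58 and 10.75 on the HEK293 control arrays. Levels of PSME1 in HEK001 were 11.46, 11.41 and 11.39 on the knockdown arrays, against 10.79, 10.69 and 10.73 on the control arrays. Its arms lay apart in opposite ways (difference -1.54, SE 0.134, adjusted p = 1.02e-05). TAP1, a subunit of the peptide transporter of the endoplasmic reticulum, measured 8.55, 8.51 and 8.41 on the HEK293 knockdown arrays, against 9.53, 9.51 and 9.54 on the HEK293 control arrays. HEK001 showed TAP1 at 9.66, 9.69 and 9.46 on the knockdown arrays, against 9.19, 9.18 and 9.12 on the control arrays. It fell by 1.04 in HEK293 and rose by 0.44 in HEK001 (difference -1.48, adjusted p = 7.74e-06). PSME2, the partner of PSME1, was the third opposite member (-0.55 and 0.40), and its opposite call was lost with median scaling. HLA-B, a class I heavy chain, measured 7.96, 8.60 and 8.66 on the HEK293 knockdown arrays, against 8.70, 8.75 and 8.63 on the HEK293 control arrays. For HLA-B, HEK001 gave 9.91, 10.04 and 10.30 on the knockdown arrays, against 8.38, 8.32 and 8.63 on the control arrays. It rose by 1.64 in HEK001 with arms apart, whereas the HEK293 arms overlapped (-0.29, adjusted p = 0.242), and the difference was -1.93 (adjusted p = 0.000153). HLA-C gave -0.28 in HEK293, not called, and rose by 1.07 in HEK001 (difference -1.34, adjusted p = 0.00933). Class I genes are similar in sequence, and whether their probes read each other's transcripts was not tested.

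Promoters from RefSeq (GRCh38.p14), from 250 bases before to 50 after the start of each gene, were searched on both strands for GAAA followed by any 2 bases and GAAA, a form of the interferon-stimulated response element. They occurred in 12 of the 23 interferon list promoters available (52.17%) and in 8 of 11 of the MHC list (72.73%). The share was 3.65% of all 27305 promoters and 2.60% of the 6358 promoters of genes detected on all arrays. Among the 115 available promoters of opposite genes lower in HEK293, 7 held them (6.09%), against 2 of the 104 of opposite genes higher in HEK293 (1.92%). Those 7 include the 4 list genes whose windows are given below. The letters were also in 4.92% of the 122 available promoters of genes that fell in both lines and in 2.33% of the 86 of genes that rose in both. Within both lists they occurred as well in HERC5, whose difference was positive. ISG20, TRIM26, PLSCR1, NMI and PSMB10 held them without a called difference. The windows of the 4 opposite genes of both lists that held the letters before the start of the gene read as follows on the strand of the gene. Capitals mark 1 match in each window, which in TAP1 lies on the other strand. The promoters of ISG15 and TAP1 held 2 matches each and that of IFI6 held 3, and the further ones are not marked. The ISG15 window lies on the plus strand at chr1:1013354-1013423, the IFI6 window on the minus strand at chr1:27672309-27672378, the TAP1 window on the minus strand at chr6:32853799-32853868 and the PSME2 window on the minus strand at chr14:24146611-24146668. A match is a description of letters and not a site at which binding was measured. Of the other elements searched in the same way, the sterol element TCACNCCAC (1.15% of all promoters) was in none of 13 cholesterol promoters, the ATF4 element TGATGNAAT (1.02%) in none of 18 amino acid response promoters, and the AP-1 element TGANTCA (7.76%) in none of 13 immediate early and 8 TGF-beta target promoters.
ISG15: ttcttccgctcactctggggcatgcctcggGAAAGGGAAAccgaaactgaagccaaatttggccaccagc
IFI6: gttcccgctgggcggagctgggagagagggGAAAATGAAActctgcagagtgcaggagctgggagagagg
TAP1: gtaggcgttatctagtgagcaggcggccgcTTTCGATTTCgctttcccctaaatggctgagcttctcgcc
PSME2: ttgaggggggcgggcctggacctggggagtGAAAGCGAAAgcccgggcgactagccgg

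Lipid synthesis genes were lower in HEK293 and, for part of them, higher in HEK001. Of 15 cholesterol genes, 7 were lower and none higher in HEK293 (median -0.38), and 4 were higher and none lower in HEK001 (median 0.18). The difference was negative for 8 (53.3%, beside 12.3% of all 7623 genes) and positive for none (median -0.85, and -0.73 with median scaling). SQLE, the monooxygenase that makes squalene epoxide, measured 9.98, 10.23 and 9.90 on the HEK293 knockdown arrays, against 11.30, 11.06 and 11.41 on the HEK293 control arrays. SQLE in HEK001 measured 11.32, 11.23 and 11.18 on the knockdown arrays, against 10.90, 10.72 and 10.81 on the control arrays. It fell by 1.22 in HEK293 and rose by 0.44 in HEK001 (difference -1.66, SE 0.164, adjusted p = 2.94e-05), and a second probe fell by 1.42 in HEK293 but was not called in HEK001 (0.30). LSS, which closes the sterol ring system, fell by 0.65 and rose by 0.67 in the same order (difference -1.31, adjusted p = 0.000217). DHCR7, the last enzyme of cholesterol synthesis, was the third opposite member (-0.38 and 0.49). INSIG1, which retains the SREBP escort protein in the endoplasmic reticulum, measured 10.01, 9.82 and 9.92 on the HEK293 knockdown arrays, against 11.50, 11.25 and 11.53 on the HEK293 control arrays. Levels of INSIG1 in HEK001 were 10.57, 10.64 and 10.32 on the knockdown arrays, against 10.33, 10.14 and 10.07 on the control arrays. It fell by 1.51 in HEK293, while its HEK001 value of 0.33 was not called (adjusted p = 0.0776), and the difference was -1.84 (adjusted p = 1.39e-05). HMGCS1, which makes HMG-CoA, fell by 1.18 in HEK293 and gave 0.18 in HEK001, not called (difference -1.36, adjusted p = 7.95e-05).

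Fatty acid genes were mixed. Of 17, 9 were lower in HEK293 (median -0.40), and in HEK001 6 were higher and 4 lower (median 0.14). There were 5 opposite and 3 alike members, beside 3.45% and 3.25% of all 7623 genes. The difference was positive for 1 (5.9%) and negative for 8 (47.1%), beside 13.1% and 12.3%. ACSS2, which makes acetyl-CoA from acetate, measured 7.93, 7.40 and 7.86 on the HEK293 knockdown arrays, against 8.40, 8.21 and 8.37 on the HEK293 control arrays. HEK001 showed ACSS2 at 10.83, 10.53 and 10.56 on the knockdown arrays, against 9.57, 9.55 and 9.49 on the control arrays. The arms were apart in opposite ways (difference -1.70, SE 0.192, adjusted p = 8.23e-05), and a second probe was opposite too (-0.60 and 1.13). SLC25A1, the mitochondrial citrate carrier, fell by 0.45 in HEK293 and rose by 0.58 in HEK001 (difference -1.03, adjusted p = 0.000242). FASN, ACLY and SCD, which encode fatty acid synthase, ATP citrate lyase and stearoyl-CoA desaturase, completed the opposite members with differences of -0.84, -0.72 and -0.85. By contrast FADS1, a desaturase of polyunsaturated fatty acids, fell in both lines (-1.26 and -0.46, difference -0.80, adjusted p = 0.00207), as did HSD17B12 (-0.68 and -0.44) and ELOVL6 (-0.49 and -0.35), both of which elongate fatty acids; a second ELOVL6 probe gave -0.34 and -0.38, not called. LSS, ACSS2 and SLC25A1 kept their opposite calls in all 23 alternatives, whereas SQLE kept it in 17, DHCR7 in 14, ACLY in 15, SCD in 13 and FASN in 9, all of them losing it with median scaling.

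**Figure D3:**
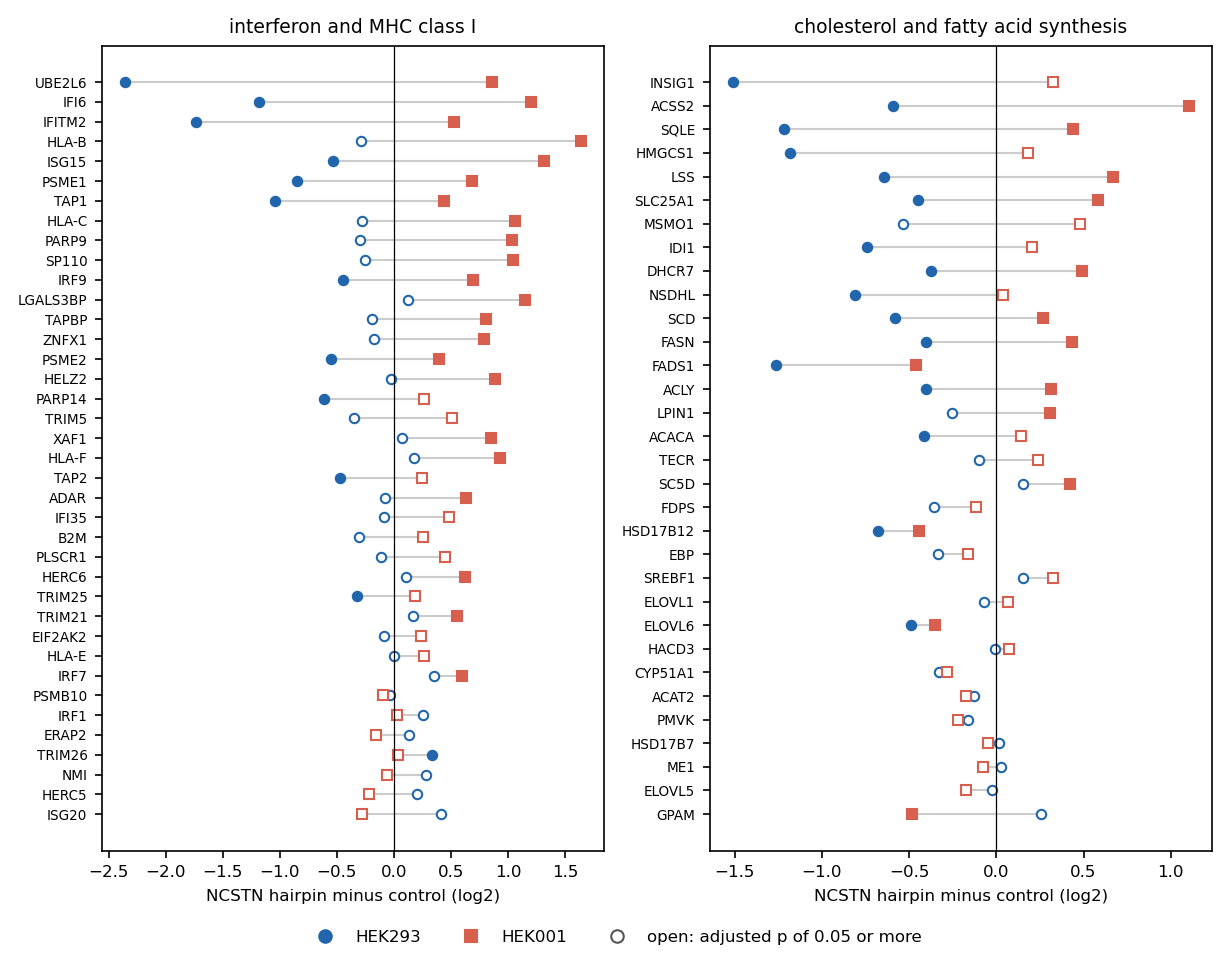
Log2 effect of the NCSTN hairpin relative to its control in HEK293 (circles) and HEK001 (squares) for every member detected on all 12 arrays of the interferon and MHC class I lists (left) and the cholesterol and fatty acid lists (right), ordered by the difference between the lines; filled symbols were called. Near the top of each panel the circles lie left of 0 and the squares right of it, with FADS1, HSD17B12 and ELOVL6 left of 0 in both lines.

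Cell cycle genes fell in HEK001 and for the most part were not called in HEK293. Of 42 G2/M and mitosis genes, 34 were lower and none higher in HEK001 (median -0.60), beside 9.18% lower among all 7623 genes. In HEK293, 3 were higher and 4 lower (median 0.01), beside 13.9% and 13.7% of all genes. The difference was positive for 29 (69.0%, beside 13.1% of all genes) and negative for none. Its median was 0.60, from 0.53 to 0.69 over the scaling and background alternatives. BIRC5, the mitotic and anti-apoptotic protein survivin, measured 10.63, 10.58 and 10.59 on the HEK293 knockdown arrays, against 9.98, 9.97 and 9.97 on the HEK293 control arrays. For BIRC5, HEK001 gave 9.70, 9.86 and 9.53 on the knockdown arrays, against 10.43, 10.34 and 10.32 on the control arrays. It rose by 0.63 in HEK293 and fell by 0.66 in HEK001 with arms apart in both (difference 1.29, SE 0.133, adjusted p = 3.94e-05), while a second probe was called in HEK293 (0.85) but not in HEK001 (-0.38). KIF23, a kinesin of cytokinesis, and KIF11, the kinesin that separates spindle poles, were the other opposite members (differences 1.24 and 1.06), and second probes of both were called in neither line. The opposite call of KIF11 was lost without knockdown replicate 2, knockdown replicate 3 or control replicate 2 of HEK293. CDC25C, a phosphatase that activates CDK1, measured 8.01, 8.31 and 8.19 on the HEK293 knockdown arrays, against 8.0, 7.91 and 7.96 on the HEK293 control arrays. CDC25C in HEK001 measured 6.25, 6.43 and 6.19 on the knockdown arrays, against 6.90, 7.29 and 7.02 on the control arrays. It fell by 0.78 in HEK001, and its HEK293 value of 0.21 was not called (difference 0.99, adjusted p = 0.00114). Other CDC25C probes detected on all 12 arrays gave smaller differences of 0.44 and 0.39, not called (adjusted p = 0.0557 and 0.0684). In HEK001 these probes gave -0.33, not called, and -0.63, called. BUB3, a spindle checkpoint protein, fell in both lines (-0.54 and -0.52), with a difference of -0.02 (95% interval -0.33 to 0.29). KIF4A, a chromosome-bound kinesin, fell in both (-0.47 and -0.93) and further in HEK001 (difference 0.46, adjusted p = 0.0161).

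DNA replication genes showed the same pattern. Of 37, 20 were lower and none higher in HEK001 (median -0.36), beside 9.18% lower among all 7623 genes. In HEK293, 5 were higher and 2 lower (median 0.05), beside 13.9% and 13.7% of all genes. The difference was positive for 16 (43.2%, beside 13.1%) and negative for none (median 0.40, and 0.51 with median scaling). RRM2, the small subunit of ribonucleotide reductase, measured 7.93, 8.33 and 8.06 on the HEK293 knockdown arrays, against 6.94, 6.97 and 6.80 on the HEK293 control arrays. Levels of RRM2 in HEK001 were 6.77, 7.22 and 7.78 on the knockdown arrays, against 8.18, 7.81 and 7.64 on the control arrays. It rose by 1.21 in HEK293 with arms apart, while the HEK001 arms overlapped (-0.62, adjusted p = 0.0658), and the difference was 1.83 (SE 0.301, adjusted p = 0.000983). TYMS, thymidylate synthase, fell by 0.86 in HEK001 and gave 0.26 in HEK293, not called (difference 1.12, adjusted p = 0.000217). In bulk RNA, fewer cells in a phase of the cycle and less RNA per cell cannot be told apart. Opposite members were GINS4 (0.48 and -0.71) and GINS3 (0.41 and -0.52), subunits of the replicative helicase, together with RRM1 and FEN1. Each of these 4 opposite calls was lost in at least 1 alternative, GINS3 in leave-outs of HEK293 arrays alone. POLA1, the catalytic subunit of the priming polymerase, fell in both lines (-0.63 and -0.34).

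The cytosolic heat shock and proteasome lists also lay higher in the HEK293 response. ER chaperone and lysosomal genes had called differences of both signs, the ER genes in shares near those of all genes. Of 25 cytosolic heat shock genes, 4 were higher and 2 lower in HEK293 (median 0.08), beside 13.9% and 13.7% of all 7623 genes. In HEK001, 11 were lower and none higher (median -0.24), beside 9.18% and 8.37%. The difference was positive for 11 (44.0%) and negative for 1 (4.0%), beside 13.1% and 12.3%, with a median of 0.40. HSPA8, the constitutive HSP70, measured 12.64, 12.69 and 12.63 on the HEK293 knockdown arrays, against 12.26, 12.12 and 12.08 on the HEK293 control arrays. HEK001 showed HSPA8 at 12.87, 13.09 and 12.99 on the knockdown arrays, against 13.54, 13.31 and 13.43 on the control arrays. It rose by 0.50 in HEK293 and fell by 0.44 in HEK001 (difference 0.94, adjusted p = 0.000422), and a second probe was opposite as well (0.38 and -0.38). HSPA1A, the inducible HSP70, measured 12.40, 11.90 and 11.87 on the HEK293 knockdown arrays, against 11.84, 11.82 and 12.28 on the HEK293 control arrays. For HSPA1A, HEK001 gave 9.95, 9.98 and 9.71 on the knockdown arrays, against 11.27, 11.09 and 11.28 on the control arrays. Its arms overlapped in HEK293 (0.08, adjusted p = 0.779) and were apart in HEK001, where it fell by 1.33 (difference 1.41, adjusted p = 0.000806); HSPA1A and HSPA1B are near-identical and their probes may share transcripts. HSPB1, a small heat shock protein, went the other way, as it fell by 0.76 in HEK293 and gave 0.10 in HEK001, not called, with a difference of -0.86 (adjusted p = 0.000552). CCT2, a subunit of the chaperonin that folds actin and tubulin, fell in both lines (-0.71 and -1.20).

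Of 35 proteasome genes, 11 were higher and none lower in HEK293 (median 0.18), 1 was higher and 4 lower in HEK001 (median -0.18), and the difference was positive for 14 and negative for none (median 0.33). PSMD11, a lid subunit of the proteasome, measured 7.94, 7.74 and 7.93 on the HEK293 knockdown arrays, against 7.17, 7.21 and 7.53 on the HEK293 control arrays. PSMD11 in HEK001 measured 7.22, 7.10 and 7.16 on the knockdown arrays, against 7.78, 7.56 and 7.68 on the control arrays. It rose by 0.56 in HEK293 and fell by 0.52 in HEK001 (difference 1.08, adjusted p = 0.000466). PSMC3, an ATPase of the same particle, was the other opposite member (0.45 and -0.49). Both kept their opposite calls in all 23 alternatives. PSMG4, an assembly chaperone, rose in both lines (0.30 and 0.47).

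Of 26 genes of ER chaperones and the unfolded protein response, 4 were higher and none lower in HEK293 (median 0.08), and 5 were higher and 1 lower in HEK001 (median 0.11). The difference was positive for 3 (11.5%) and negative for 4 (15.4%), shares near the 13.1% and 12.3% of all 7623 genes. The median difference was -0.12, but 0.02 without knockdown replicate 3 of HEK293. HSPA5, the main chaperone of the endoplasmic reticulum, measured 7.50, 7.47 and 7.40 on the HEK293 knockdown arrays, against 7.45, 7.54 and 7.46 on the HEK293 control arrays. HEK001 showed HSPA5 at 9.33, 9.15 and 9.20 on the knockdown arrays, against 8.35, 8.45 and 8.41 on the control arrays. Its arms overlapped in HEK293 (-0.02, adjusted p = 0.875) and were apart in HEK001, where it rose by 0.82 (difference -0.85, adjusted p = 0.000392). PDIA5, a protein disulfide isomerase, also rose in HEK001 alone (difference -0.64, adjusted p = 0.00943). SEC11C, a subunit of the signal peptidase, fell by 0.39 in HEK001 and gave 0.15 in HEK293, not called (difference 0.54, adjusted p = 0.00687).

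Of 34 lysosomal genes, 7 were higher and 3 lower in HEK293 (median 0.05), 9 were higher and 3 lower in HEK001 (median 0.10), and the difference was positive for 4 (11.8%) and negative for 8 (23.5%), beside 13.1% and 12.3% of all 7623 genes. The median difference was 0.01, and 0.11 with median scaling. GRN, the precursor of the granulins, measured 8.41, 8.42 and 8.27 on the HEK293 knockdown arrays, against 8.70, 8.55 and 8.37 on the HEK293 control arrays. For GRN, HEK001 gave 10.10, 10.29 and 10.67 on the knockdown arrays, against 9.23, 9.40 and 9.37 on the control arrays. It rose by 1.02 in HEK001 with arms apart, while those of HEK293 overlapped (-0.17, not called), and the difference was -1.19 (adjusted p = 0.000914; -0.66 with a second probe). GAA, the lysosomal alpha-glucosidase, likewise rose in HEK001 alone (difference -0.99, adjusted p = 0.0138), whereas GLA, an alpha-galactosidase, fell in HEK293 alone (difference -0.71, adjusted p = 0.00447). SQSTM1, a receptor for selective autophagy, rose by 0.76 in HEK293 and gave -0.11 in HEK001, not called (difference 0.87, adjusted p = 0.0005).

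Mitochondrial ribosome genes were called higher for 16 and lower for 2 of 76 in HEK293 (median 0.09), beside 13.9% and 13.7% of all 7623 genes. In HEK001, 2 were higher and 7 lower (median -0.09), beside 8.37% and 9.18%. Their difference was positive for 15 (19.7%) and negative for 1 (1.3%), beside 13.1% and 12.3%, with a median of 0.23. Ribosome biogenesis genes had a median difference of 0.29, positive for 13 (27.1%) and negative for 1 (2.1%) of 48. Splicing genes had one of 0.19 (0.30 with median scaling), positive for 10 (21.3%) and negative for 1 (2.1%) of 47. Cytosolic ribosomal protein genes were mostly not called. Of 71, 2 were higher in HEK293 and 1 in HEK001, none was lower in either, and the difference was called for 3 (median -0.05, and from -0.06 to -0.01 when single arrays were left out). Of 68 oxidative phosphorylation genes, the difference was positive for 3 (4.4%) and negative for 8 (11.8%), the second a share near the 12.3% of all 7623 genes, and the median of -0.11 became -0.004 with median scaling.

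Immediate early genes rose in HEK293 and divided in HEK001. Of 17, 11 were higher and 2 lower in HEK293 (median 0.48), beside 13.9% and 13.7% of all 7623 genes. In HEK001, 3 were higher and 5 lower (median -0.02), beside 8.37% and 9.18%. The list held 4 opposite and 4 alike members, beside 3.45% and 3.25% of all genes. PPP1R15A, the stress-induced partner of a phosphatase for eIF2-alpha, measured 9.55, 9.72 and 9.58 on the HEK293 knockdown arrays, against 8.37, 8.43 and 8.32 on the HEK293 control arrays. Levels of PPP1R15A in HEK001 were 9.62, 9.71 and 9.48 on the knockdown arrays, against 9.95, 10.17 and 10 on the control arrays. It rose by 1.25 in HEK293 and fell by 0.44 in HEK001 without overlap (difference 1.68, adjusted p = 6.94e-06). CCN1, a matricellular protein and relative of CCN2, did likewise (0.78 and -0.62, difference 1.40, adjusted p = 0.000307), and ATF3 and DUSP1 were the other opposite members. FOSB, an AP-1 subunit, rose by 1.23 in HEK293 and gave -0.26 in HEK001, not called (difference 1.48, adjusted p = 0.00171). MYC, a growth-promoting transcription factor, fell by 1.26 in HEK293 and gave 0.21 in HEK001, not called (difference -1.48, adjusted p = 2.86e-05). JUND, another AP-1 subunit, rose in both lines (0.40 and 0.80).

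Of 10 TGF-beta and BMP targets, 5 were higher and 1 lower in HEK293 (median 0.46), 3 were lower and none higher in HEK001 (median -0.22), and the difference was positive for 5 and negative for none (median 0.72). Besides CCN2 and CCN1, TPM1, an actin-binding tropomyosin, was opposite (0.38 and -0.33), a call it kept in 17 of 23 alternatives. A second TPM1 probe was called in HEK001 (-0.37) and for the difference (0.59) but not in HEK293 (0.21). ID1 and ID3, dominant-negative helix-loop-helix proteins, rose by 1.15 and 0.97 in HEK293 and gave -0.05 and 0.03 in HEK001, not called (differences 1.20 and 0.94). Of 17 p53 targets, 7 were higher and none lower in HEK293 (median 0.28), while 2 were higher and 2 lower in HEK001 (median 0.08). The difference was positive for 7 (41.2%, beside 13.1% of all genes) and negative for none. GADD45A, a growth arrest gene, was opposite (0.48 and -0.47, difference 0.95, adjusted p = 0.00138), a call lost without replicate 3 of the knockdown or of the control in HEK001. A second GADD45A probe was called in HEK293 (0.53) and for the difference (0.89) but not in HEK001 (-0.37). Both lines carry viral proteins that bind p53.

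Amino acid genes that ATF4 activates held 3 opposite members. Of 21, 5 were higher and 8 lower in HEK293, beside 13.9% and 13.7% of all 7623 genes. In HEK001, 4 were higher and 3 lower, beside 8.37% and 9.18%. The difference was positive for 3 (14.3%) and negative for 9 (42.9%), beside 13.1% and 12.3%. Its median was -0.24, but -0.13 without control replicate 2 of HEK293 and -0.37 without control replicate 3 of HEK293. CBS, which makes cystathionine from homocysteine, measured 9.22, 8.93 and 9.04 on the HEK293 knockdown arrays, against 10.25, 10.38 and 10.31 on the HEK293 control arrays. HEK001 showed CBS at 8.94, 9.05 and 8.98 on the knockdown arrays, against 8.35, 8.58 and 8.39 on the control arrays. It fell by 1.25 in HEK293 and rose by 0.55 in HEK001 (difference -1.80, adjusted p = 6.38e-06). PYCR1, a proline synthesis enzyme, fell by 0.86 and rose by 0.60 (difference -1.46, adjusted p = 1.56e-05), while a second probe detected on 9 arrays was called in neither line. ATF5, a relative of ATF4, went the opposite way, as it rose by 1.05 in HEK293 and fell by 0.57 in HEK001 (difference 1.62, adjusted p = 1.99e-05). STC2, a secreted glycoprotein, fell in both lines (-1.05 and -0.51), and its difference of -0.54 (adjusted p = 0.0308) lost its call in 10 of 23 alternatives.

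**Figure D4:**
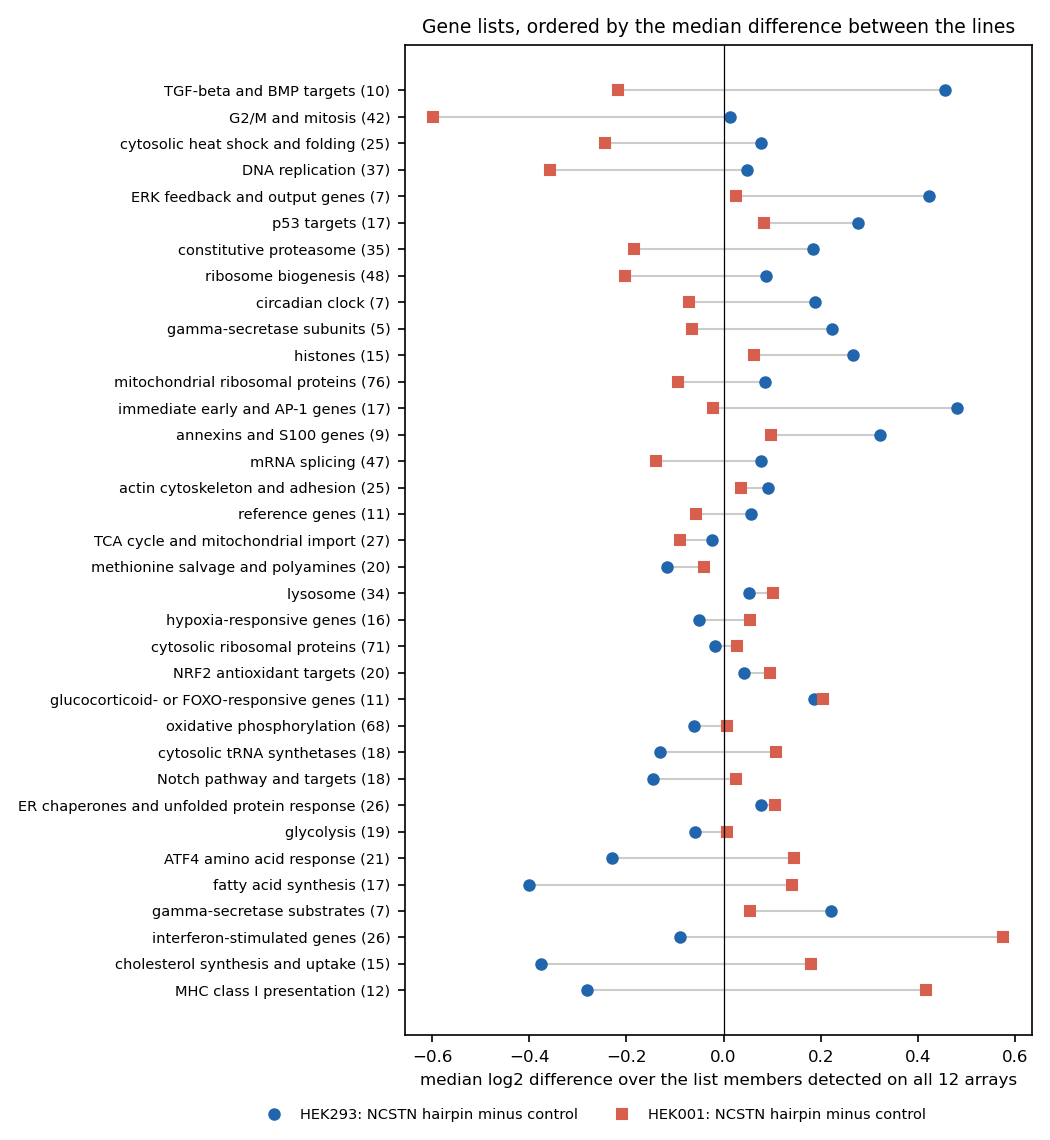
Median log2 effect of the NCSTN hairpin relative to its control over the members detected on all 12 arrays of each of 35 gene lists, in HEK293 (circles) and HEK001 (squares), with the number of members in brackets and lists ordered by the median difference between the lines. TGF-beta targets, mitosis, heat shock and replication stand at the top with HEK293 right of HEK001, and MHC class I, cholesterol and interferon genes at the bottom with HEK293 left of HEK001.

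Most differences between the lines involved a call in only 1 of them. Of 1593 genes called in HEK293 alone, 920 were called for the difference, and of 827 called in HEK001 alone, 477 were. ANXA1, the annexin that mediates anti-inflammatory effects of glucocorticoids, measured 9.55, 9.53 and 9.63 on the HEK293 knockdown arrays, against 5.81, 5.70 and 6.14 on the HEK293 control arrays. For ANXA1, HEK001 gave 12.49, 12.55 and 12.42 on the knockdown arrays, against 12.49, 12.66 and 12.58 on the control arrays. The HEK001 arms overlapped, while in HEK293 the knockdown arrays stood far above the control arrays. ANXA1 rose by 3.68 in HEK293, and the difference was 3.78 (SE 0.158, adjusted p = 5.51e-08). SGK1, a kinase induced by serum and glucocorticoids, measured 9.83, 9.66 and 9.76 on the HEK293 knockdown arrays, against 7.54, 7.39 and 7.11 on the HEK293 control arrays. SGK1 in HEK001 measured 10.26, 10.31 and 10.28 on the knockdown arrays, against 10.18, 10.03 and 10.02 on the control arrays. It rose by 2.40 in HEK293, its HEK001 value of 0.20 was not called, and the other probes of SGK1 gave differences of 2.19 and 2.20 beside 2.20 here (adjusted p = 2.9e-06). VGF, a neuropeptide precursor, rose by 2.07 in HEK293 and gave -0.08 in HEK001 (difference 2.15, adjusted p = 2.85e-06).

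TSC22D3, the glucocorticoid-induced leucine zipper protein, went against ANXA1 and SGK1. It measured 9.21, 9.33 and 9.32 on the HEK293 knockdown arrays, against 11.75, 11.67 and 11.53 on the HEK293 control arrays. Levels of TSC22D3 in HEK001 were 9.53, 9.47 and 9.39 on the knockdown arrays, against 9.10, 9.28 and 9.18 on the control arrays. It fell by 2.36 in HEK293, and its HEK001 value of 0.27 missed the threshold (adjusted p = 0.0618), although the HEK001 arms did not overlap. The difference was -2.64 (SE 0.131, adjusted p = 1.18e-07), and a second probe was called opposite (-2.57 and 0.71). Of 11 glucocorticoid- or FOXO-responsive genes, 5 were higher and 3 lower in HEK293, and 3 were higher and 1 lower in HEK001. The difference was positive for 2 (18.2%) and negative for 4 (36.4%), beside 13.1% and 12.3% of all 7623 genes. KLF9 and FBXO32 also fell in HEK293 alone (-0.93 and -1.14), while FKBP5 rose in both lines (0.38 and 0.62). FGFR3, a receptor for fibroblast growth factors, measured 10.11, 10.09 and 10 on the HEK293 knockdown arrays, against 9.71, 9.70 and 9.90 on the HEK293 control arrays. HEK001 showed FGFR3 at 9.10, 9.12 and 9.16 on the knockdown arrays, against 6.60, 6.72 and 6.36 on the control arrays. The rise of 2.57 in HEK001 stood beside 0.30 in HEK293, not called (difference -2.27, SE 0.147, adjusted p = 1.37e-06). A second FGFR3 probe, detected on 3 arrays, gave -0.27 in HEK001 and was not called, so the FGFR3 difference rests on 1 probe. IGFBP2, a carrier of insulin-like growth factors, rose by 1.79 in HEK001 and gave -0.19 in HEK293 (difference -1.99, adjusted p = 3.9e-05). VIM, the intermediate filament vimentin, rose by 1.79 in HEK293 and fell by 0.34 in HEK001 (difference 2.13, adjusted p = 9.85e-07), an opposite call kept in 18 of 23 alternatives and seen with a second probe (1.91 and -0.53). NDRG1, a stress and hypoxia response gene, fell by 1.72 in HEK293 and rose by 0.55 in HEK001 (difference -2.27, adjusted p = 6.94e-06), a call lost without knockdown replicate 1 of HEK001.

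Of the 248 genes that moved alike, 36 were also called for the difference, so they differed in size. For 169 of the 248 the 95% interval of the difference lay within 1.5-fold either way, which held for 3059 of all 7623 genes. After NCSTN, the largest paired falls were in genes of different functions. AUNIP, a partner of Aurora A at centrosomes, measured 6.18, 6.25 and 6.06 on the HEK293 knockdown arrays, against 7.58, 7.61 and 7.87 on the HEK293 control arrays. For AUNIP, HEK001 gave 6.15, 6.26 and 6.34 on the knockdown arrays, against 7.83, 7.65 and 7.72 on the control arrays. It fell by 1.52 in HEK293 and fell by 1.48 in HEK001, with a difference of -0.04 (95% interval -0.36 to 0.28). IL6ST, the signalling receptor gp130 of interleukin-6 cytokines, measured 6.25, 6.32 and 6.35 on the HEK293 knockdown arrays, against 7.67, 7.55 and 7.56 on the HEK293 control arrays. IL6ST in HEK001 measured 7.02, 7.06 and 7.28 on the knockdown arrays, against 8.50, 8.46 and 8.21 on the control arrays. It fell by 1.28 and fell by 1.27 in the same order, with a difference of -0.01 (95% interval -0.33 to 0.31). ERH, a small nuclear protein of RNA metabolism, gave -1.14 and -1.20, with a difference of 0.06 (95% interval -0.35 to 0.48). In these genes neither arm of either line overlapped the other, and the difference was small beside both falls.

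APIP, an enzyme of the methionine salvage pathway, measured 6.85, 7.07 and 7.51 on the HEK293 knockdown arrays, against 9.29, 9.31 and 9.42 on the HEK293 control arrays. Levels of APIP in HEK001 were 7.47, 7.62 and 7.77 on the knockdown arrays, against 9.07, 8.94 and 9.09 on the control arrays. It fell by 2.20 in HEK293 and fell by 1.41 in HEK001, and the fall was deeper in HEK293 (difference -0.79, adjusted p = 0.0141; a second probe gave -2.11 and -1.36). ENOPH1, which acts after APIP in the same pathway, fell in both lines (-1.08 and -1.17, difference 0.09, adjusted p = 0.744). Of the 20 methionine and polyamine genes these were the alike members, and SRM, spermidine synthase, was opposite (0.38 and -0.32, kept in 18 of 23 alternatives). In the Notch list of 18 genes, 5 were lower and none higher in HEK293, and 1 was lower and none higher in HEK001. The difference was negative for 3 (16.7%, beside 12.3% of all 7623 genes) and positive for none. HES6, a relative of the Notch target HES1, was the sole alike member (-0.66 and -0.53). JAG2 and JAG1, ligands of Notch, were called lower in HEK293 alone, with differences of -1.69 (adjusted p = 6.94e-06) and -0.61 (adjusted p = 0.026). JAG2 gave 0.31 in HEK001 with arms apart, and narrowly missed the threshold there (adjusted p = 0.05001). The JAG1 difference was lost in 6 of 12 leave-outs.

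Genes higher in both lines were led by histone and immediate early genes. H2BC5, a histone H2B, measured 8.71, 8.34 and 8.65 on the HEK293 knockdown arrays, against 6.84, 6.64 and 6.52 on the HEK293 control arrays. HEK001 showed H2BC5 at 9.15, 8.79 and 8.97 on the knockdown arrays, against 7.57, 7.55 and 7.65 on the control arrays. It rose by 1.90 in HEK293 and 1.38 in HEK001 without overlap of arms. The difference of 0.52 (adjusted p = 0.0497) lost its call in 18 of 23 alternatives, and a second probe gave 0.06. H2AC6, a histone H2A, rose by 1.04 and 0.94 (difference 0.09, adjusted p = 0.778). Of 15 histone genes, 7 were higher and 1 lower in HEK293 and 5 higher and 3 lower in HEK001. None was opposite and 5 were alike, beside 3.45% and 3.25% of all 7623 genes. The alike fall was in H2AZ1, a histone variant (-1.13 and -1.43). H1-2, a linker histone, rose in HEK293 alone (1.26 and -0.21, difference 1.47, adjusted p = 0.000242). Histone genes are similar in sequence, most of their transcripts lack a poly(A) tail, and what the labelling and the probes make of them was not tested.

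EGR1, a zinc finger protein of the immediate early response, measured 9.17, 9.33 and 9.38 on the HEK293 knockdown arrays, against 7.07, 7.37 and 7.27 on the HEK293 control arrays. For EGR1, HEK001 gave 10.21, 10.30 and 10.35 on the knockdown arrays, against 9.34, 9.46 and 9.39 on the control arrays. It rose by 2.06 in HEK293 and 0.89 in HEK001, and the rise was larger in HEK293 (difference 1.17, SE 0.142, adjusted p = 0.000137). CEBPD, an inflammatory transcription factor, measured 7.14, 7.22 and 7.47 on the HEK293 knockdown arrays, against 6.39, 6.43 and 6.63 on the HEK293 control arrays. CEBPD in HEK001 measured 10.27, 10.21 and 10.22 on the knockdown arrays, against 9.47, 9.52 and 9.48 on the control arrays. Its rises were 0.80 and 0.74, with a difference of 0.05 (95% interval -0.26 to 0.37). ZNF329, a zinc finger protein, rose by 0.86 and 1.20 (difference -0.34, adjusted p = 0.158). The 10 genes plotted as alike kept both calls in all 23 alternatives.

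**Figure D5:**
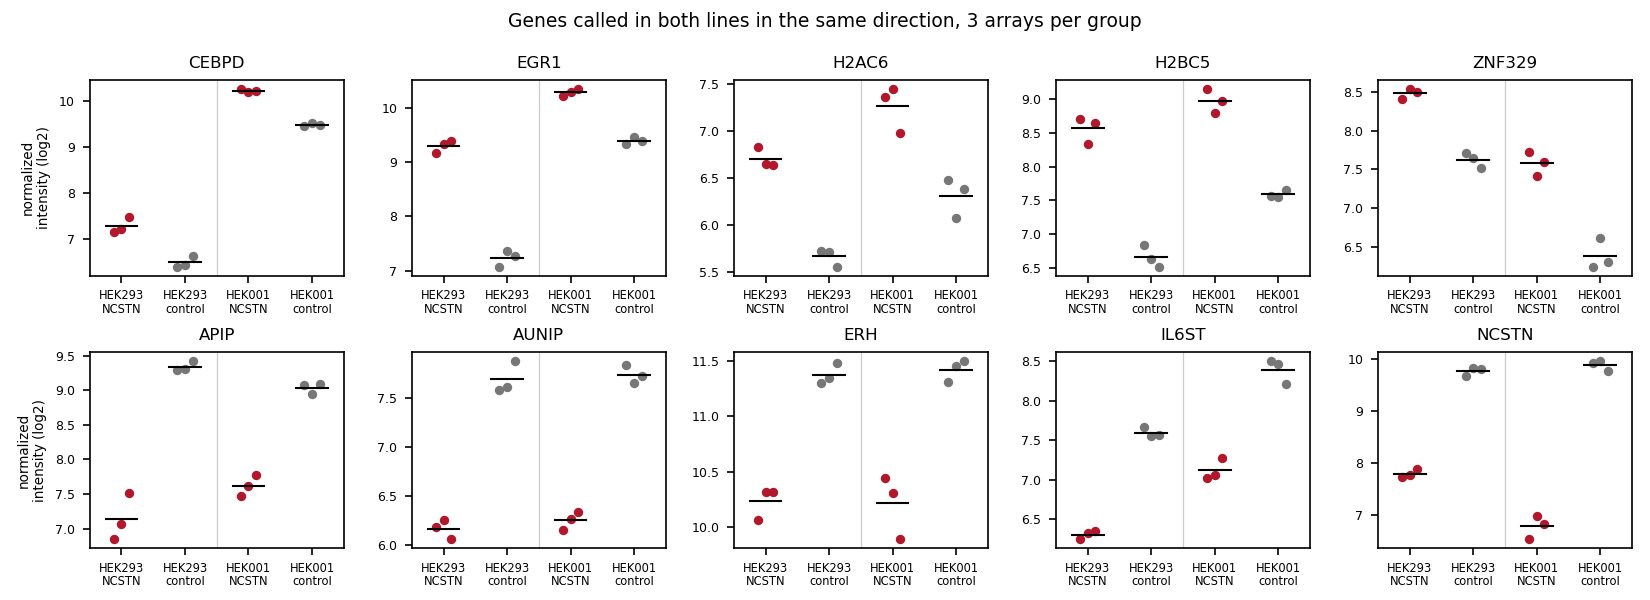
Normalized log2 intensity of 10 genes called in the same direction in both lines on each array, 1 point per array, with a line at the mean of each group of 3 arrays; in each line the knockdown group (red) is left of its control (grey). The upper row is higher and the lower row lower with the NCSTN hairpin in both lines, with arms that do not overlap.

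Second probes gave an internal check of the difference between the lines. Of 458 second probes of genes called for the difference, 423 had the same sign, 219 were themselves called with the same sign and 3 with the opposite sign. Of 46 second probes of opposite genes, 14 were called opposite too, and of 80 second probes of alike genes, 27 were called alike too.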

How the data were processed

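Total RNA of the 12 samples was labelled from 100 ng and hybridized to Illumina BeadChips, 1 array per sample. Per the file headers, the authors' deposited scanner table holds a mean signal, a linear intensity after background subtraction, a detection p-value and a count of beads for each of 47318 probes, the count being a whole number as deposited. A second table holds the authors' deposited log2 values of 21270 probes and served as an alternative. GenomeStudio 2010 and R 3.0.2 are the tools listed in the submitters' processing notes. Bead errors (12 columns) stayed unused.

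Signals were corrected by normexp, given an offset of 16, quantile normalized and fitted with limma 3.58.1 in R 4.3.3 (4 group means, 8 residual and 12.8 total degrees of freedom, Benjamini-Hochberg over 11075 genes). The fit took probes detected at 0.01 on 3 or more arrays, and genes detected on all 12 were read from it. Gene names came from the platform annotation, updated through RefSeq, which held 16030 of 16040 named probes. In simulated data 68 of 100 genes with a difference of 1 log2 unit were recovered, and 7 of 100 with 0.5, beside 7 false calls among 11075 genes. Only these genes were given a difference there, whereas 2711 genes were called for the difference in the data. The adjusted threshold was therefore stricter in the simulation, and its recovery does not measure how many real differences were missed. Array number and bead count limit the precision.

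The members and gene lists were chosen with earlier results of these data known. Named were, for each direction, the 6 opposite, 5 alike and 4 one-line genes with the largest effects, all subunits, and in each list up to 4 members differing most and 3 alike members. ACLY, DHCR7, DUSP1, FEN1, HERC5, IRF9, PSME2 and RRM1, as list members, were named after their values were seen, to complete a count. The alternatives tried were other background corrections, scalings, filters, weights, spread estimates, a replicate block and leaving out each array. Same-numbered arrays of the arms of a line did not deviate together (r between -0.0472 and 0.0719), and the main fit took no pairing. This does not show that the samples were unpaired, since shared culture or infection is not labelled.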

Additional observations from a re-analysis of the deposited data

Results flagged for a closer look

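The effect of the NCSTN hairpin differed between HEK293 and HEK001 by the limma test of the difference itself for 1939 of 7623 genes. The values in brackets are the HEK293 effect minus the HEK001 effect on the log2 scale.

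Genes that moved in opposite directions with the higher effect in HEK293 were PER2 (2.51), GADD45B (2.46), VIM (2.13), CCN2 (1.82), KMT5B (1.70), PPP1R15A (1.68), ATF5 (1.62), PIGW (1.44), CCN1 (1.40), ATF3 (1.29), BIRC5 (1.29), KIF23 (1.24), GINS4 (1.19), PSMD11 (1.08), KIF11 (1.06), GADD45A (0.95), HSPA8 (0.94), PSMC3 (0.94), GINS3 (0.93), TPM1 (0.71) and SRM (0.70). The opposite genes with the lower effect in HEK293 were UBE2L6 (-3.22), IFI6 (-2.38), NDRG1 (-2.27), IFITM2 (-2.26), BTN3A2 (-2.25), FBXL16 (-1.85), ISG15 (-1.85), CBS (-1.80), ADGRL1 (-1.77), CLYBL (-1.71), ACSS2 (-1.70), SQLE (-1.66), PSME1 (-1.54), TAP1 (-1.48), PYCR1 (-1.46), LSS (-1.31), SLC25A1 (-1.03), SCD (-0.85) and FASN (-0.84).

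Genes called in HEK293 alone differed positively for ANXA1 (3.78), SGK1 (2.20), VGF (2.15), RRM2 (1.83), FOSB (1.48), H1-2 (1.47), ID1 (1.20), ID3 (0.94) and SQSTM1 (0.87), and negatively for TSC22D3 (-2.64), INSIG1 (-1.84), JAG2 (-1.69), MYC (-1.48), HMGCS1 (-1.36), HSPB1 (-0.86), GLA (-0.71) and JAG1 (-0.61). Genes called in HEK001 alone differed positively for HSPA1A (1.41), TYMS (1.12), CDC25C (0.99) and SEC11C (0.54), and negatively for FGFR3 (-2.27), IGFBP2 (-1.99), HLA-B (-1.93), HLA-C (-1.34), GRN (-1.19), GAA (-0.99), HSPA5 (-0.85) and PDIA5 (-0.64). Other CDC25C probes gave differences of 0.44 and 0.39, not called.

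Among genes that moved the same way in both lines, the size differed positively for EGR1 (1.17), NCSTN (1.12), H2BC5 (0.52), CCT2 (0.49) and KIF4A (0.46), where the sign for falls means a deeper fall in HEK001. It differed negatively for FADS1 (-0.80), APIP (-0.79) and STC2 (-0.54), whose falls were deeper in HEK293, although the STC2 call was lost in 10 of 23 alternatives. The H2BC5 call was lost in 18 of 23, and a second H2BC5 probe gave a difference of 0.06, not called.

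In a limma fit of all kept probes, with p adjusted over these probes, 2389 of the 11537 probes detected on all 12 arrays were called for the difference. Of the 2018 among them that carry no single gene name, 316 were called (15.7%). The probes without a single gene name were left out of all counts of genes.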

How the results depend on the processing

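No alternative turned round a called difference of a named gene, whereas differences near 0 that were not called changed sign in at least 1 alternative for APH1B, AUNIP, BUB3, CEBPD, ENOPH1, ERH, H2AC6 and IL6ST. The counts of genes called in both lines moved. Leaving out 1 array at a time gave 1592 to 1811 genes called for the difference, 164 to 222 opposite, 165 to 227 alike, 1643 to 2216 called in HEK293 and 821 to 1367 in HEK001. The lowest opposite, alike and HEK001 counts (164, 165 and 821) came without control replicate 3 of HEK001. With the replicate number as a block, 1651 genes were called for the difference, 178 were opposite and 176 alike. Under the same block 1814 were called in HEK293 and 1015 in HEK001, and whether the numbers pair samples is not labelled. With each line fitted on its own spread, 176 were opposite and 168 alike. An offset of 50 gave 352 and 313, and array weights 331 and 310. Median scaling raised the median difference of all genes to 0.092, against 0.037, and split the opposite genes 136 against 95. Dropping the detection filter and filtering at 0.05 on 4 arrays gave the same counts, because the gene names used cover the probes of the authors' log2 table. Of 263 opposite and 248 alike genes, 87 and 103 kept both calls in every alternative. Each named gene was counted once under each setting, so 1 gene can recur in the following counts. Under the settings other than left-out arrays, 43 such comparisons lost their call and 2 gained one, with 2067 on the same side. Without an array, 96 comparisons lost and 1 gained it. Of the list medians, 29 values under those settings and 45 without an array moved by more than the spread between replicates.

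Precision was limited by 3 arrays per group. The difference of effects had a median standard error of 0.162 (5th to 95th percentile 0.123 to 0.257), so a gene not called is not shown to respond alike.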
